A study of Homo sapiens with 6 samples.

Results

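Collagens, laminins and integrins were looked for among the named rows of an expression array experiment, and the search returned 1 gene, COL26A1. The genes were chosen by their symbols: a probe set counted if its annotation gave exactly 1 symbol of the collagen chain, laminin chain or integrin subunit form, and the probe set with the highest mean stood for a gene. The RefSeq gene table held 81 genes of that form, of which 44 encode collagen chains, 12 laminin chains and 25 integrin subunits. COL26A1 was the only one of them among the 14884 genes named by the platform annotation, with 1 probe set (Entrez gene 136227). The other 80, among them all laminins and integrins, have no named probe set in the annotation used and are not analysed here, so the values below are those of COL26A1 and of the machinery around collagens and integrins, not of those families.

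The cells were BE(2)-C_tetoff_KDM4C, a derivative of the human neuroblastoma line BE(2)-C with inducible expression of KDM4C, a demethylase of methylated histone H3 lysine 9. The arrays compared 3 samples of these cells grown for 6 days without doxycycline, which in a tet-off system leaves the KDM4C construct on, with 3 samples grown for 6 days with doxycycline, which keeps it off. All 6 samples carried the construct and grew in medium with dialyzed serum, and no array of cells without the construct was used here, so KDM4C induction and removal of doxycycline cannot be told apart. The labels do not say whether the derivative was 1 clone or whether the samples of a group came from separate cultures, and p-values therefore measure only the spread between these samples, which may be technical.

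Collagens are secreted or membrane proteins of 3 chains wound into a triple helix, and they give connective tissue its strength. Each kind of chain is the product of its own gene. Laminins are the adhesive trimers of basement membranes. Integrins are the cell surface receptors that bind both and pass the contact on to the actin cytoskeleton. Type XXVI collagen, the product of COL26A1, is a secreted collagen with an EMI domain, described in mouse as a product of testis and ovary. Neuroblastoma cells descend from the sympathetic branch of the neural crest, and their attachment to matrix is mediated largely by integrins.

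The arrays behind these values were alike. Expression values ran from 2.12 to 14.3 on the log2 scale, array medians from 3.94 to 3.96, and arrays of the same group correlated at 0.991 or above over 53617 probe sets. KDM4C stood at 9.03 ± 0.05 without and 7.76 ± 0.05 with doxycycline (log2, SD, n = 3 each), the direction that the labels give. All 6 measured genes of a neuroblastoma marker list of 9 (PHOX2A, HAND2, GATA3, ISL1, TH and DBH) lay well above the median probe set, at group means of 9.13 to 11.28 without and 8.98 to 11.00 with doxycycline. The 4 endothelial markers measured, of 6, lay below it, at 2.87 to 3.12 without and 2.85 to 3.04 with doxycycline. Both measured fibroblast markers, of 7, lay above the median: LUM, a small proteoglycan of collagen fibrils, averaged 11.06 without and 11.36 with doxycycline, and THY1, which neurons carry too, 6.58 and 6.65 in the same order. Of the measured Schwann and neural crest (4), immune (3) and epithelial (4) markers, 1 each lay above it. None of the 23 measured markers passed the test described below.

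COL26A1 ranked near the median of all probe sets in every sample, in the low part of the array's range of values. Its log2 expression was 4.08, 3.91 and 4.05 in the 3 samples without doxycycline, against 4.11, 3.96 and 3.92 in the 3 samples with doxycycline. The groups overlapped completely: the lowest of the 6 values was in a sample without doxycycline, the highest in a sample with it, and all lay within 0.20 of each other.

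**Figure D1:**
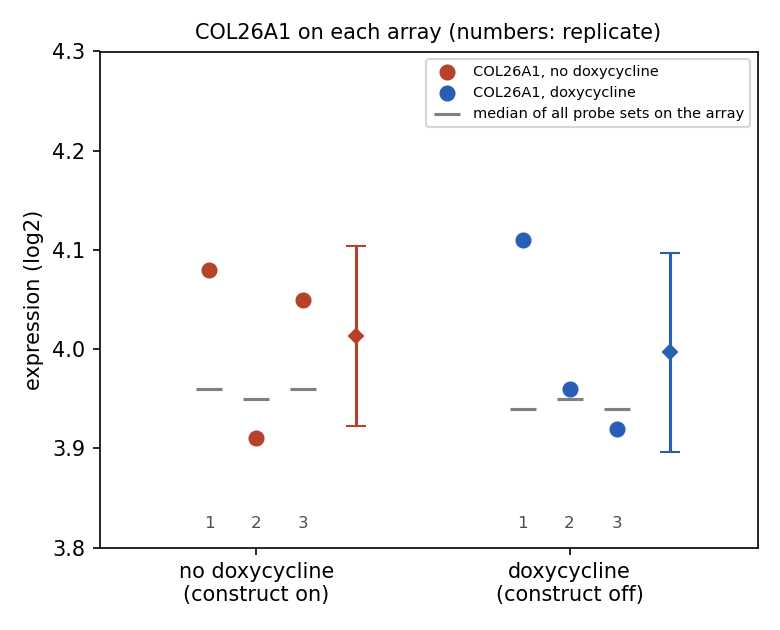
Log2 expression of COL26A1 on each array (coloured points, with replicate numbers below), its group mean with SD (diamonds, n = 3 each) and the median of all probe sets on the same array (grey dashes); the axis does not start at 0. The 3 values without doxycycline (3.91 to 4.08) and the 3 with it (3.92 to 4.11) span the same range and straddle the array medians of 3.94 to 3.96.

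By its mean over the 6 arrays, 4.01, COL26A1 lay above the median of all probe sets, which was 3.94, but only by 0.06 on the log2 scale. That margin is smaller than the SD of its own replicates (0.09 without and 0.10 with doxycycline). Taken array by array, COL26A1 exceeded the median of its array in 4 of 6, 2 without and 2 with doxycycline, and fell short of it in no-doxycycline replicate 2 and doxycycline replicate 3. Its rank within an array ran from the 49.0th to the 52.7th percentile without and from the 49.5th to the 53.8th with doxycycline.

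A position just above the median of all probe sets is not a sign of an abundant transcript. Probe sets differ in how strongly they bind, so a rank among them describes the signal only, and most of them carry no gene name. Of the named genes the larger part lay higher: 61.2% of the 14884 named genes, each by its brightest probe set, lay above the median of all probe sets. Against the median of these named genes, 4.89, COL26A1 was lower by 0.89 on the log2 scale, at the 39.9th percentile of named genes and the 51.4th of all probe sets. Whether the COL26A1 transcript was present at all cannot be read from these values, since no detection call or background level was used.

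**Figure D2:**
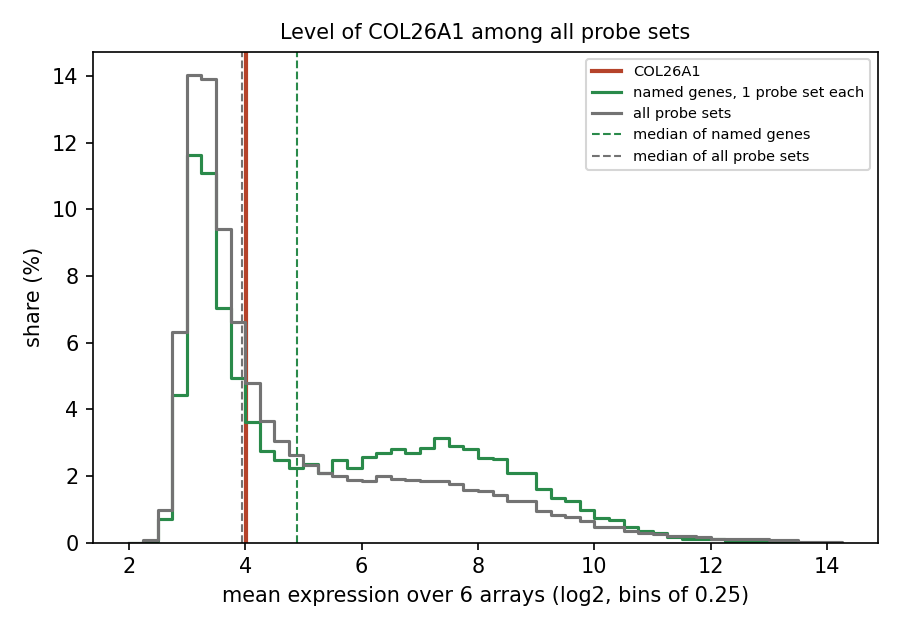
Share of all 53617 probe sets (grey) and of the 14884 named genes (green) in bins of mean log2 expression over the 6 arrays, with COL26A1 as a red line and both medians dashed. COL26A1 at 4.01 stands next to the median of all probe sets (3.94) and left of the median of named genes (4.89).

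COL26A1 did not differ between the groups beyond its replicate spread. It averaged 4.01 ± 0.09 without and 4.0 ± 0.10 with doxycycline (log2, SD, n = 3 each), a log2 difference of 0.02 (SE 0.08, 95% confidence interval -0.18 to 0.22). That interval reaches from 1.13-fold lower to 1.16-fold higher without doxycycline, and a larger change of the measured signal lies outside it. In bulk RNA, fewer expressing cells and less RNA per cell cannot be told apart. The limma p was 0.826, and 0.952 after Benjamini-Hochberg adjustment over all 53617 probe sets. A two-sided exact permutation test of the same values, over the 20 possible assignments of 3 and 3 arrays, gave p = 1 where 0.1 is the smallest it can give. So 0 of 1 gene passed an adjusted p below 0.05, where 0.341% of all probe sets did, 0.248% as higher and 0.0933% as lower without doxycycline. Its groups overlapped, as did those of all but 19.3% of probe sets. At an unadjusted p below 0.05, which 12.4% of all probe sets met, it did not pass either.

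The replicates of COL26A1 varied somewhat less than those of the median probe set. Their pooled SD was 0.0978 on the log2 scale, against a median of 0.117 over all probe sets, and 38.4% of probe sets varied less. A larger absolute difference was seen in 88.5% of all probe sets. Arrays tend to compress the fold changes of weak signals, so the interval above bounds the change of the signal and not that of the transcript.

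The named genes nearest to COL26A1 did not pass the test either. In the gene order of GRCh38.p14, FIS1, which encodes a mitochondrial fission protein, is the nearest named protein-coding gene on one side and CUX1, which encodes a homeodomain transcription factor, on the other, each with 1 protein-coding gene of no named probe set in between. FIS1 had a log2 difference of 0.03 (95% confidence interval -0.15 to 0.21) and CUX1 one of -0.07 (-0.27 to 0.12). Both lay above the median of all probe sets, with mean log2 levels of 6.25 and 7.42 over the 6 arrays.

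Rows named as antisense RNAs of a collagen or integrin gene are not values of their host genes, and they too stayed close to 0. The log2 differences of COL4A2-AS1, COL18A1-AS1, COL18A1-AS2 and ITGB2-AS1 were -0.05, 0.07, 0.00 and 0.01. All 4 lay below the median of all probe sets, with mean log2 levels over the 6 arrays of 3.07, 3.61, 3.06 and 3.69.

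The genes that make, cut and sense collagen and laminin were better represented than the chains themselves. Of 97 such genes in 5 lists, 70 were measured, and 0 rose and 0 fell at a limma adjusted p below 0.05 over all probe sets, where 0.564% of named genes passed. At an unadjusted p below 0.05, 6 were higher and 9 lower, which is 21.4% of the 70, against 12.4% of all probe sets and 14.4% of named genes. The median log2 difference of the 70 was -0.02, against 0.006 over all probe sets. The groups of 24 of the 70 (34.3%) did not overlap, against 19.3% of all probe sets, a share not computed for named genes.

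Only 12 of the 25 listed collagen-processing genes were measured. Of these 12, 11 (91.7%) lay above the median of all probe sets, against 61.2% of named genes. An unadjusted p below 0.05 was reached by 1 higher and 2 lower. That is 25% of the 12, against 12.4% of all probe sets and 14.4% of named genes. The groups of 3 (25%) did not overlap, against 19.3% of all probe sets. LOXL1, a lysyl oxidase-like enzyme that acts in elastin and collagen cross-linking, measured 6.76, 6.66 and 6.69 without doxycycline, against 7.18, 7.10 and 7.11 with it. The LOXL1 groups did not overlap, and their difference of -0.43 on the log2 scale (SE 0.06) had a limma adjusted p of 0.0629. CRTAP, part of the complex that hydroxylates collagen prolines in the endoplasmic reticulum, was at -0.26 (limma adjusted p = 0.21), and the lysyl oxidases LOXL2 and LOX were at 0.31 and 0.10 (0.35 and 0.602). Leaving out the probe sets below the median gave LOXL1 an adjusted p of 0.0446 at the same difference. LOXL1 passed in only 1 of 10 alternative fits, and over the 10 its limma adjusted p reached 0.21.

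Of 10 measured matrix receptors outside the integrin family, 8 (80%) lay above the median of all probe sets, against 61.2% of named genes. None passed over all probe sets. At an unadjusted p below 0.05, 2 were higher and 4 lower. That is 60% of the 10, against 12.4% of all probe sets and 14.4% of named genes. The groups of 6 (60%) did not overlap, against 19.3% of all probe sets. DDR2, a receptor tyrosine kinase activated by fibrillar collagen, measured 10.78, 10.74 and 10.80 without doxycycline and 10.34, 10.43 and 10.51 with it. Its groups did not overlap and its log2 difference was 0.35 (SE 0.07, limma adjusted p = 0.129). BCAM, a receptor for the laminin alpha 5 chain, measured 4.03, 3.97 and 4.08 without doxycycline, against 4.71, 4.67 and 4.47 with it, a log2 difference of -0.59 (SE 0.08, limma adjusted p = 0.0569). The BCAM groups did not overlap, with all 3 values lower without doxycycline. CD44, the hyaluronan receptor, was at -0.67 (limma adjusted p = 0.077) and SDC4, a heparan sulfate proteoglycan of focal adhesions, at 0.20 (limma adjusted p = 0.401). Of the 10 receptors, 2 had positive and 8 negative differences, against 30 and 40 of the 70 matrix genes, which include these 10. The shares of positive and negative differences over all probe sets were not computed. DDR2 passed with trend and robust moderation (limma adjusted p = 0.0462) and BCAM without the probe sets below the median (limma adjusted p = 0.0427). Each passed in only 1 of 10 alternative fits, and over the 10 the limma adjusted p reached 0.318 for DDR2 and 0.208 for BCAM.

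The list of integrin adaptors and focal adhesion kinases also held other genes, such as CD151, CD47 and ITGB3BP. Of its 21 measured genes, 17 (81%) lay above the median of all probe sets, against 61.2% of named genes. The log2 differences ran from -0.31 to 0.24. None passed over all probe sets, and an unadjusted p below 0.05 was reached by 2 higher and 1 lower. That is 14.3% of the 21, against 12.4% of all probe sets and 14.4% of named genes. The groups of 10 of the 21 (47.6%) did not overlap, against 19.3% of all probe sets. The share of named genes whose groups did not overlap was not computed. FERMT2, a kindlin that activates integrins with talin, averaged 10.44 ± 0.03 without and 10.20 ± 0.03 with doxycycline (SD, n = 3 each, log2 difference 0.24, limma adjusted p = 0.194). Talin 1 (TLN1) and talin 2 (TLN2), which bind integrin tails, were at 0.18 and -0.15 (limma adjusted p = 0.289 and 0.425). CD151, a tetraspanin that associates with laminin-binding integrins, was at -0.31 (limma adjusted p = 0.189).

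Most other matrix ligands had weak signals: 3 of 14 measured basement membrane and glycoprotein genes lay above the median of all probe sets. That is 21.4%, against 61.2% of named genes. None had an unadjusted p below 0.05, which 12.4% of all probe sets met. The groups of 1 (7.14%) did not overlap, against 19.3% of all probe sets. Their differences ran from -0.21, for the basement membrane proteoglycan AGRN (limma adjusted p = 0.494), to 0.16, for FBLN1, a fibulin (limma adjusted p = 0.632). THBS1, a thrombospondin, and FBLN2, a second fibulin, were at 0.13 and -0.19 (limma adjusted p = 0.501 and 0.574). Among 13 measured proteases and inhibitors, 10 (76.9%) lay above the median of all probe sets, against 61.2% of named genes. An unadjusted p below 0.05 was reached by 1 higher and 2 lower. That is 23.1% of the 13, against 12.4% of all probe sets and 14.4% of named genes. The groups of 4 (30.8%) did not overlap, against 19.3% of all probe sets. MMP15, a membrane-bound metalloproteinase, was at -0.41 (limma adjusted p = 0.174) and CTSK, the collagen-degrading cathepsin K, at -0.18 (limma adjusted p = 0.391). The inhibitor TIMP1 was at 0.32 and the collagenase MMP14 at 0.20 (limma adjusted p = 0.309 and 0.461).

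**Figure D3:**
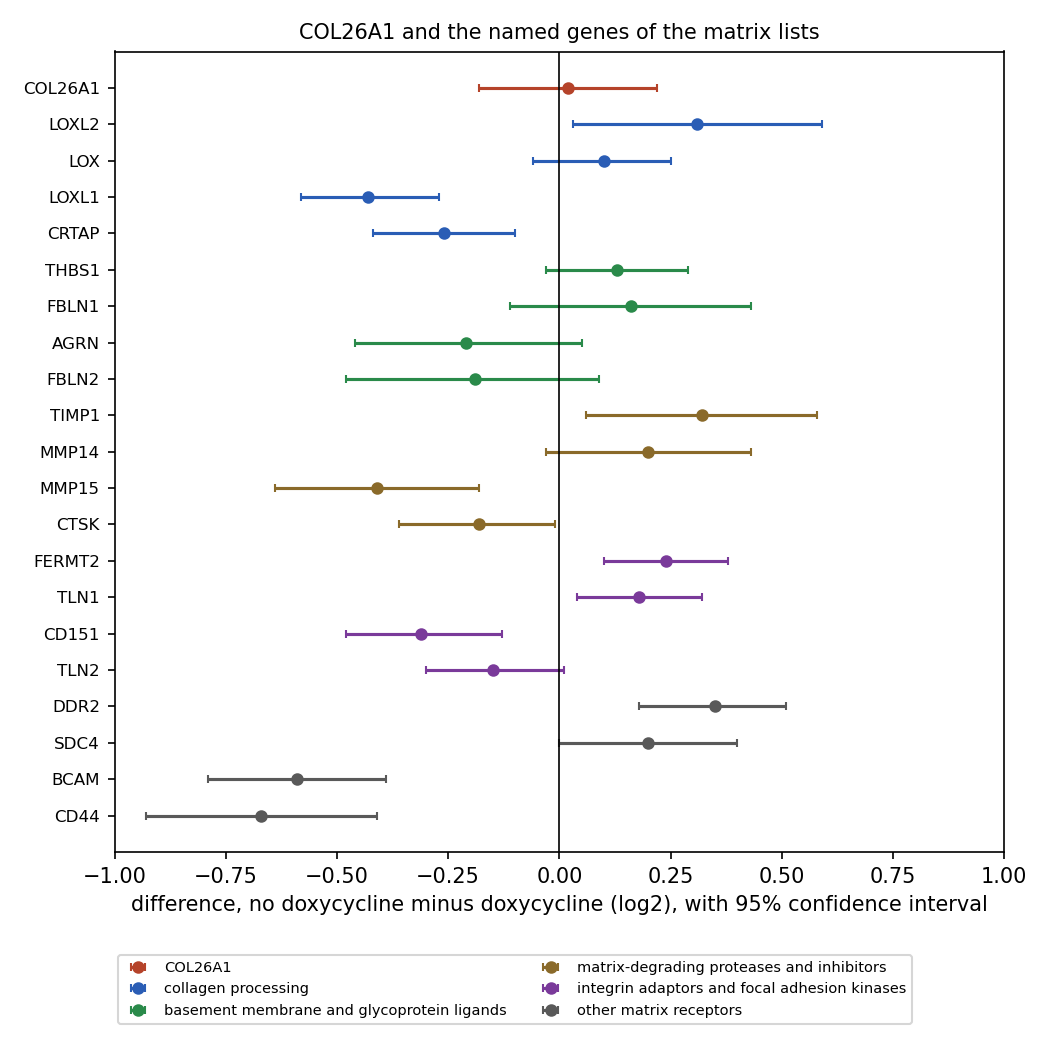
Log2 differences, no doxycycline minus doxycycline, with 95% confidence intervals for COL26A1 (top) and for the 4 genes named from each of the 5 lists of matrix genes, the 2 of smallest p in either direction. COL26A1 lies at 0.02 and its interval spans 0. The genes below it range from -0.67 (CD44) to 0.35 (DDR2), and none passed an adjusted p below 0.05. CD44 had a weak signal, with a mean below the median of all probe sets.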

How the data were processed

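The authors deposited a table of log2 values, 1 for each probe set on each array, made with Partek (no version), per the submitters' processing notes. For background correction, normalization, summarization and genome build, the method is not given in the sources used here. Size alone showed that values were on a log2 scale. GEO's platform annotation gave 1 gene symbol to 16098 of 53617 probe sets, several to 0 and none to 37519, and the RefSeq table of GRCh38.p14 held each Entrez identifier among them. limma 3.58.1 in R 4.3.3 (lmFit, eBayes) fitted every probe set, no doxycycline minus doxycycline, without a filter, and p-values were adjusted by Benjamini-Hochberg at a threshold of 0.05. Intervals are 95% intervals of the moderated fit. The procedure was tested on simulated data. The number of arrays limits the precision. The symbol rule and the lists were chosen with earlier results of these data known. Genes named beside COL26A1 and KDM4C are, per matrix list and direction, the 2 of smallest p. Neighbouring genes and antisense rows were chosen after seeing which symbols were annotated, and the markers named are examples from their lists. Alternatives were quantile normalization, trend and robust moderation, a filter on dim probe sets, a replicate block, another choice of probe set, the median of named genes, and leaving out each array.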

Additional observations from a re-analysis of the deposited data

How the results depend on the processing

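COL26A1 passed in none of 10 alternative fits. Its log2 difference ran from -0.02 to 0.08 and its limma adjusted p from 0.80 to 0.999, and the sign changed in 3 of the 10. It has 1 probe set, so choosing or averaging probe sets changes nothing by construction. Its place above the median was lost against the median of named genes: 0 of 1 gene, against 1 of 1. Of the 70 matrix genes, 1 passed with trend and robust moderation (DDR2) and 2 without dim probe sets (LOXL1 and BCAM), with 0 in the fit reported; the filter tests fewer probe sets. Over all probe sets 183 passed, against 385 with trend and robust moderation, 311 without dim probe sets and 0 to 15 with 1 array left out. With a replicate block 0 passed. Numbers 1 to 3 occur in both groups. The deviations of same-numbered arrays correlated at -0.0119, -0.0144 and 0.0407, and 1 of 3 numbers had its best correlation with its own. Correlations this weak show little shared deviation across an array, and with 3 arrays per group they cannot tell whether same-numbered samples were paired. The KDM4C difference was 1.24 to 1.29, with a limma adjusted p of 0.00171 to 0.118 and 5 of 10 past the threshold.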
